A study of Homo sapiens with 8 samples.

Results

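The nuclear genes for subunits of respiratory chain complexes I to IV were examined in HAP1 cells with and without BCDIN3D. The set took every gene symbol of the NDUFA, NDUFB, NDUFC, NDUFS and NDUFV series with a plain number, SDHA to SDHD, and every symbol that begins with UQCR or with COX followed by 4 to 8. A sum of 100 or more counts over the 4 RNA-seq libraries was required, which left 63 of 118 matching symbols among the 57996 symbols in each file. Complex I had 37 members, complex II 4, complex III 10 and complex IV 12. HAP1 is a near-haploid human line derived from a chronic myelogenous leukaemia. The wild-type group was HAP1 (2 libraries) and the knockout group was BCDIN3D KO clone 11, a single clone of HAP1 (2 libraries). Both groups grew for 48 h in IMDM with 10% FBS and PSQ, and each library of a group shared its label date with a library of the other group. BCDIN3D encodes a methyltransferase that acts on the 5′ end of histidine tRNA. With 1 clone, the effect of the lost gene and a difference between clones cannot be told apart. The design text calls the replicates biological but names no separate thaws, and each p-value therefore covers only the spread between the deposited libraries, part of which may be technical.

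The respiratory chain sits in the inner mitochondrial membrane. Complex I oxidises NADH and complex II oxidises succinate, and both pass electrons to ubiquinone. Complex III moves them from ubiquinol to cytochrome c, and complex IV hands them to oxygen. Complexes I, III and IV pump protons, and ATP synthase uses the gradient. All subunits of complex II and most subunits of the other complexes are encoded in the nucleus, and a smaller core of complexes I, III and IV is encoded in mitochondrial DNA. Nuclear respiratory factor 1 (NRF1), the ETS factor GABPA and YY1 are known regulators of many of these nuclear genes.

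Promoter sequences are shown because those regulators are the known link between the nuclear subunit genes. The RefSeq promoter table (GRCh38.p14, 250 bases before to 50 after each gene's start) held 45 of the 63 members. It had no entry for SDHC, whose level changed. A short NRF1 core, CGCANGCG, searched on both strands like the others, lay in 16 of the 45 windows (35.6%) and in 1544 of 7438 windows of tested coding genes (20.8%). The ETS motif CCGGAAGT lay in 7 of 45 (15.6%, against 9.90%) and the YY1 motif AAGATGGCG in 7 of 45 (15.6%, against 4.45%). All 7 YY1 matches began 10 to 25 bases after the gene start. No match of one motif overlapped a match of another, and in NDUFA8 a pair of NRF1 matches overlapped each other. A match describes the letters and does not show binding. Below are the 250 bases upstream of the start for SDHA, which had 4 NRF1 matches and was the member with the most, for NDUFB4, which had 3, for SDHD, which had an NRF1 and an ETS match, and for COX8A, which had an ETS match. They are written 5′ to 3′ on the plus strand, which is the coding strand of all 4 genes, with motif matches in capitals. Their positions are chr5:218070-218319 for SDHA, chr3:120596086-120596335 for NDUFB4, chr11:112086623-112086872 for SDHD and chr11:63974370-63974619 for COX8A.
SDHA: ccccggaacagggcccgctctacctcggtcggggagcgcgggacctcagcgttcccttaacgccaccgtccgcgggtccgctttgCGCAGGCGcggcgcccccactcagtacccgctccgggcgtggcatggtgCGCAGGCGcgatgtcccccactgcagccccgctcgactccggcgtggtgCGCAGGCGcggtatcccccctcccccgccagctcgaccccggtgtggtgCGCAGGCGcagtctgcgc
NDUFB4: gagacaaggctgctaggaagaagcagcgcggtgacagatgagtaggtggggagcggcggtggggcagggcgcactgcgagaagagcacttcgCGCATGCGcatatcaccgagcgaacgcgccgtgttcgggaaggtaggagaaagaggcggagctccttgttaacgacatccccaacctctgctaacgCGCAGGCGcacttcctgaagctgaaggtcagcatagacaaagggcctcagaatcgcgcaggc
SDHD: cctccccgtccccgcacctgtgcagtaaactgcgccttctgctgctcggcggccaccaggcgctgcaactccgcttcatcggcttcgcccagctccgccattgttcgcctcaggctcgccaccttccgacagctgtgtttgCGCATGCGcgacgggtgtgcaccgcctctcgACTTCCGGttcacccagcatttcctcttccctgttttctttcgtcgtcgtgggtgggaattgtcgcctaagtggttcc
COX8A: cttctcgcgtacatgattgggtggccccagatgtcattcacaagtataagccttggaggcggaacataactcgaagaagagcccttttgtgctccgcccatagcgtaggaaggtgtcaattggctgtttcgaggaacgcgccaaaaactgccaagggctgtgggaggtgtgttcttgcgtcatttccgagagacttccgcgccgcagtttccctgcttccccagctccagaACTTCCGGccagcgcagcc

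Relative to the gene start as position 0, the 4 NRF1 matches of SDHA began at -165, -116, -67 and -18. In NDUFB4 they began at -158 and -62, with a further one at -7 that crosses the start and is not capitalised. The NRF1 match of SDHD began at -109 and its ETS match at -78, and the ETS match of COX8A began at -19. The median log2 fold change was 0.06 over the 16 members with an NRF1 match and 0.04 over the other members with a window, so the medians lay close together. These medians carry no test.

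Library totals were 20065041 to 24415272 counts. The targeted gene BCDIN3D stood at 7.40 and 4.90 CPM (a gene's counts relative to its library's total, after TMM scaling for library composition) in wild-type and at 1.56 and 2.71 CPM in knockout. Its log2 fold change was -1.52 ± 0.24 (SE, edgeR adjusted p = 2.06e-05), so its transcript was lower but still counted. Of 10 markers of other cell types 9 were too low to test. The summed level of the 10, mostly COL1A1 of fibroblasts, was 8.65 and 10.9 CPM in wild-type against 7.52 and 8.80 in knockout, with overlap. PTPRC, a defining marker of leukocytes, was near 0 in both groups, with at most 4 counts in a library, although the line is of leukaemic origin. In bulk RNA, fewer cells of a type and less RNA per cell cannot be told apart.

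Respiratory chain transcripts were nearly level between knockout and wild-type. SDHC, a membrane anchor gene of complex II, fell. Of the 63 members 0 were higher and 2 (3.17%), SDHC among them, lower at an adjusted p under 0.05 (edgeR quasi-likelihood test, adjusted over 16233 genes). Of all tested genes 3.06% were called higher and 3.50% lower, 6.56% in all. All 63 members passed the filter on low counts. The share called lower was thus near that of all genes. Among genes with 1000 or more counts, 0% of 59 members and 4.13% of 9437 genes were called higher. The shares called lower there were 3.39% and 1.97%. DESeq2 also called 0 members higher. At an unadjusted p under 0.05, 10 of 63 members were higher and 5 lower, against 8.39% and 8.31% of all tested genes (1362 and 1349 of 16233). The higher share of the members was thus above that of all genes, and this was not tested. Among genes with 1000 or more counts, 10 of 59 members and 1046 of 9437 genes were higher, and 4 and 630 lower.

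The size of the differences was small. Log2 fold changes ran from -0.50 in NDUFV2 to 0.33 in the pseudogene UQCRFS1P1, and 35 of 63 lay within 0.1 of 0. The median was 0.04 over the members and 0.00168 over all tested genes. The 95% interval lay wholly within a 1.5-fold change in either direction for 60 members (95.2%) and for 65.9% of all tested genes. Interval width follows counts: among genes with 1000 or more counts the shares were 100% of 59 members and 97.1% of 9437 genes. The 3 members whose interval reached past 1.5-fold were NDUFV2, UQCRFS1P1 and COX6A1P2, all under 7 CPM in every library.

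**Figure D1:**
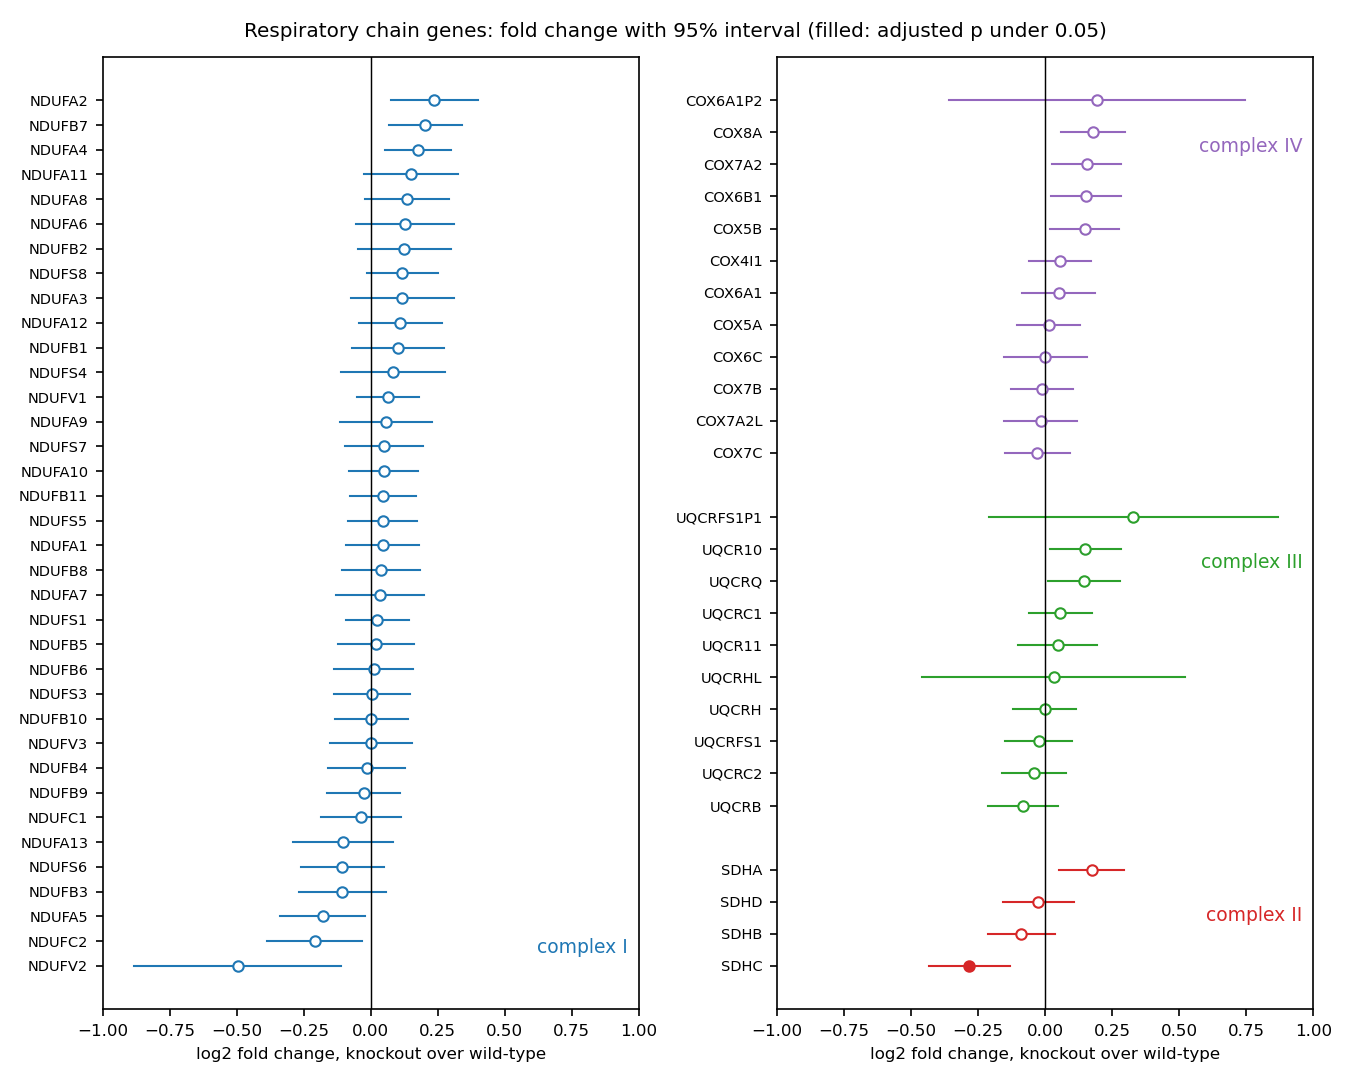
Log2 fold change (knockout over wild-type, x axis) of 62 of the 63 members by complex, with 95% intervals from the edgeR fit of 2 against 2 libraries; filled circles have an adjusted p under 0.05. SDHC is filled and lies left of 0, and the widest intervals belong to NDUFV2, UQCRFS1P1, COX6A1P2 and UQCRHL.

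More members lay above 0 than below, by small amounts. The count was 43 above and 20 below (68.3% above, against 50.4% of all tested genes), and it was 35 above (55.6%, against 43.7%) when libraries were scaled by size alone. The sign was the same in both pairs of one date for 45 members (71.4%, against 63.4% of all tested genes). Under size scaling the median of all tested genes also moved down, to -0.03. Both knockout libraries exceeded both wild-type libraries in 23 members (36.5%, against 23.5% of all genes) and lay below both in 11 (17.5%, against 21.8%). Among genes with 1000 or more counts, 67.8% of 59 members and 54.5% of 9437 genes lay above 0. There, both knockout libraries exceeded both wild-type libraries in 37.3% of the members and 27.9% of the genes. They lay below both in 16.9% and 18.8%. Summed over the 63 members, wild-type libraries held 7403 and 7393 CPM and knockout libraries 7557 and 7618 CPM, which is 2.56% more. The knockout sums lay above the wild-type sums without overlap under TMM. Scaled by library size alone, they were 7443 and 7490 CPM against 7472 and 7563, which overlapped, and the difference was 0.682%. Complex I summed to 3330 and 3325 CPM in wild-type against 3410 and 3400 in knockout (2.34% more). Complex IV summed to 2013 and 2022 in wild-type against 2070 and 2143 in knockout (4.44% more). By the symbol rule the complex I sum takes in NDUFA4, whose product is now placed in complex IV. NDUFA4 alone stood at 175 and 170 CPM in wild-type against 189 and 200 in knockout. The complex I changes under either scaling include this gene, and no sum was made with it moved. Complex III summed to 1477 and 1467 CPM in wild-type against 1484 and 1508 in knockout (1.65% more), and its groups lay closer to each other than its knockout libraries did. By the symbol rule the complex III sum takes in the pseudogene UQCRFS1P1 and leaves out the core subunit gene CYC1. CYC1 alone stood at 278 and 290 CPM in wild-type against 315 and 341 in knockout. Complex II overlapped, at 583 and 580 CPM in wild-type against 592 and 566 in knockout (a change of -0.389%). With library size alone the change was 0.461% for complex I, -2.22% for complex II, -0.208% for complex III and 2.53% for complex IV, and the groups of complexes III and IV overlapped. With 2 libraries against 2, no exact permutation test of such a sum can pass 0.05, and none was run.

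Complex I begins with the module that oxidises NADH. Its flavin and iron-sulfur core is encoded by NDUFV1, NDUFV2 and NDUFS1. NDUFV1, the flavin-binding subunit gene, stood at 303 and 303 CPM in wild-type against 313 and 321 in knockout (log2 fold change 0.06 ± 0.06, 95% interval -0.05 to 0.18). NDUFS1, which carries iron-sulfur clusters, stood at 291 and 307 against 307 and 302 CPM (0.03 ± 0.06). Levels of NDUFS1 overlapped. Those of NDUFV1 lay higher in both knockout libraries by a small amount, and the gene did not pass the threshold (adjusted p = 0.665). NDUFV2 stood at 5.77 and 6.12 CPM in wild-type against 4.45 and 3.97 in knockout (-0.50 ± 0.19, adjusted p = 0.132). It had 444 counts in all, and its pseudogene copy NDUFV2P1 had 59 (13.3% of the parent). Reads of this gene may be split between copies or dropped in counting, which was not tested, and the value is uncertain. Among the accessory genes of the module, NDUFA2 was highest in fold, at 47.4 and 49.7 CPM in wild-type against 59.3 and 55.3 in knockout (0.24 ± 0.08, adjusted p = 0.0692). The median log2 fold change of the 10 genes of the NADH module was 0.05.

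The quinone-binding module passes electrons from the iron-sulfur chain to ubiquinone. Its core genes NDUFS3, NDUFS7 and NDUFS8 did not pass the threshold. The log2 fold change of NDUFS3 was 0.0063 ± 0.070, that of NDUFS7 0.05 ± 0.07 and that of NDUFS8, which carries iron-sulfur clusters, 0.12 ± 0.07 (95% interval -0.02 to 0.25). NDUFA5, an accessory gene named after its values were seen, stood at 74.5 and 70.4 CPM in wild-type against 69.0 and 58.8 in knockout (-0.18 ± 0.08, adjusted p = 0.218). Without knockout replicate 1 its adjusted p was 0.0154.

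The membrane arm of complex I pumps protons, and its nuclear subunits are accessory. The median log2 fold change was 0.04 over 9 genes of the proximal arm and 0.02 over 11 NDUFB genes of the distal arm. NDUFB7 stood at 95.7 and 94.9 CPM in wild-type against 112 and 107 in knockout (0.20 ± 0.07, adjusted p = 0.0625). Its libraries did not overlap and lay close within each group. NDUFC2, named after its values were seen, stood at 54.8 and 49.9 CPM in wild-type against 49.8 and 40.6 in knockout (-0.21 ± 0.09, adjusted p = 0.190). Its groups nearly touched, since wild-type replicate 2 lay next to knockout replicate 1. The remaining NDUFB genes lay between -0.11 and 0.13. NDUFA4, named for complex I although its product is now placed in complex IV, stood at 175 and 170 CPM in wild-type against 189 and 200 in knockout (0.18 ± 0.06, adjusted p = 0.0833).

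Complex II is also an enzyme of the citric acid cycle. Its 4 genes did not move together. SDHC, which with SDHD anchors the enzyme in the membrane and holds haem, spans 161314381 to 161363206 of chromosome 1. Its level was 81.5 and 85.1 CPM in wild-type against 72.6 and 64.3 in knockout. The groups did not overlap, and the log2 fold change was -0.28 ± 0.08 (95% interval -0.44 to -0.13, adjusted p = 0.011). The call was lost with DESeq2 (adjusted p = 0.0854), without wild-type replicate 2 (-0.25, adjusted p = 0.212) and without knockout replicate 2 (-0.20, adjusted p = 0.247). SDHD, the other anchor gene, stood at 142 and 132 against 139 and 129 CPM (-0.03 ± 0.07). SDHB, the iron-sulfur subunit gene, stood at 166 and 164 CPM in wild-type against 158 and 152 in knockout (-0.09 ± 0.06, adjusted p = 0.532).

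SDHA, the flavin-bearing catalytic subunit gene, stood at 194 and 199 CPM in wild-type against 223 and 221 CPM in knockout. Its groups lay apart by more than either spread (SD 3.76 and 1.06), but the log2 fold change of 0.17 ± 0.06 missed the threshold (adjusted p = 0.078). SDHA has near-identical pseudogene copies: 3 such symbols together held 426 and 482 counts in the wild-type libraries against 396 and 349 in the knockout libraries, 9.15% of the counts of SDHA. Reads may be split among them, so the value of SDHA is uncertain. The 4 pseudogene symbols of SDHC held 5 counts in all libraries together.

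Complex III had 0 called members of 10. The core protein genes UQCRC1 (0.06 ± 0.06) and UQCRC2 (-0.04 ± 0.06) and the Rieske iron-sulfur gene UQCRFS1 (-0.02 ± 0.06) lay near 0 on the log2 scale. UQCRC1 stood at 321 and 331 CPM in wild-type against 325 and 352 in knockout, and the groups overlapped. Among the small subunit genes, UQCR10 stood at 134 and 129 CPM in wild-type against 138 and 154 in knockout (0.15 ± 0.07, adjusted p = 0.217). UQCRQ stood at 111 and 110 against 119 and 124 CPM (0.14 ± 0.07, adjusted p = 0.241). UQCRB, the ubiquinone-site subunit gene, was lowest in fold (-0.08 ± 0.07). The hinge protein gene UQCRH, named after its values were seen, gave -0.0021 ± 0.059, and its retrotransposed copy UQCRHL, at under 3 CPM, gave 0.03 ± 0.24.

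Complex IV had 0 called members of 12, with 9 above 0 (75.0%, against 50.4% of all tested genes). Among the 9 were the pseudogene COX6A1P2 (0.19 ± 0.27) and COX6C, named after its values were seen (0.00059 ± 0.077). COX8A, a small subunit gene expressed in all tissues, stood at 205 and 213 CPM in wild-type against 235 and 238 in knockout (0.18 ± 0.06, adjusted p = 0.0649). COX7A2 stood at 139 and 137 against 149 and 159 CPM (0.15 ± 0.06, adjusted p = 0.175). COX6B1, whose product faces cytochrome c, stood at 179 and 188 CPM in wild-type against 189 and 219 in knockout (0.15 ± 0.06, adjusted p = 0.193). COX5B stood at 148 and 152 against 159 and 174 CPM (0.15 ± 0.06, adjusted p = 0.206). In these 4 genes both knockout libraries lay above both wild-type libraries, and in all 4 knockout replicate 2 was the higher of the knockout pair. COX4I1 (0.06 ± 0.06) and COX5A (0.01 ± 0.06), the genes of the earliest nuclear subunits to join COX1 during assembly, and COX6A1 (0.05 ± 0.07), COX7B (-0.01 ± 0.06) and COX7C (-0.03 ± 0.06) were near 0. COX7A2L, which encodes a factor of respiratory supercomplexes, gave -0.02 ± 0.07.

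Tissue-restricted isoforms of complex IV were at or near 0. COX4I2 (lung), COX6A2 (heart and muscle), COX7B2 and COX8C (testis) had 0 counts in all 4 libraries. With 3 counts as the limit that a count of 0 allows, they were not detectable at this depth. COX7A1, the heart and muscle isoform, had 1 and 9 wild-type counts and 5 and 1 knockout counts. COX6B2, the testis isoform, had 17 and 28 wild-type counts and 22 and 21 knockout counts (log2 fold change 0.09 ± 0.39), 88 in all, and thus fell just under the minimum of 100. Just above it stood the pseudogenes COX6A1P2 (193 counts) and UQCRFS1P1 (194 counts). The common isoforms COX4I1, COX6A1, COX6B1, COX7A2, COX7B and COX8A thus supplied nearly all counts of their pairs in both groups. Beside these 6 isoforms, the other 49 of the 55 symbols under the minimum were pseudogenes, and 27 of the 51 pseudogene symbols matching the rule had 0 counts.

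**Figure D2:**
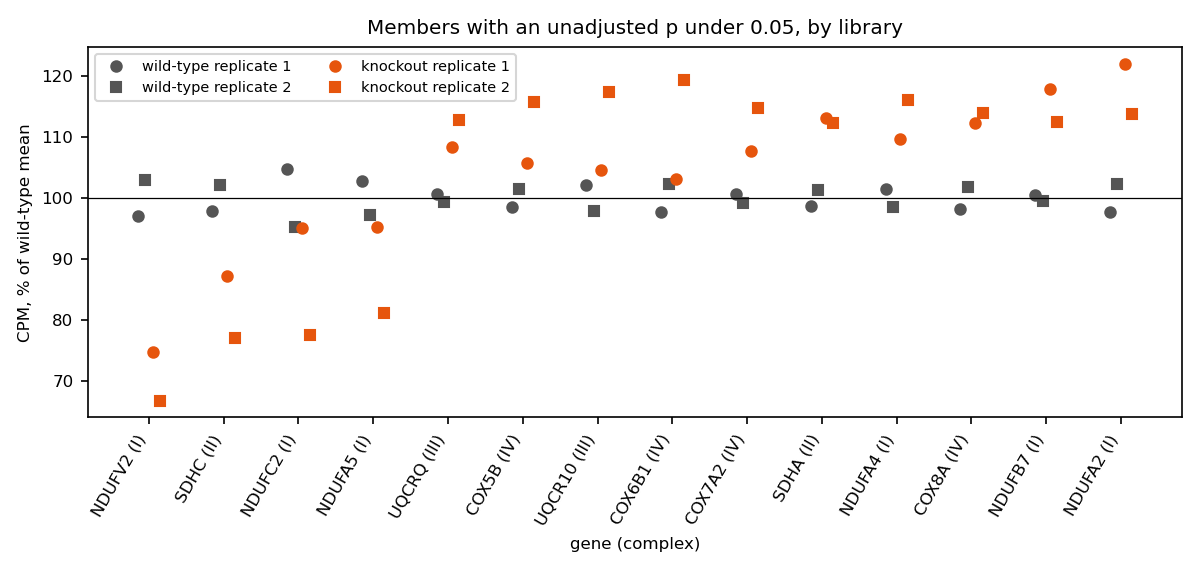
CPM of each library as a percentage of the wild-type mean (y axis) for 14 members with an unadjusted p under 0.05 (x axis, complex in brackets); circles are replicate 1 and squares replicate 2 of each group. NDUFV2 and SDHC lie well under 100% in both knockout libraries, NDUFC2 and NDUFA5 mostly in knockout replicate 2, and the 10 genes on the right lie above 100% in both knockout libraries.

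Each date in the labels is shared by a wild-type and a knockout library, but the labels do not say whether those were cultured together. With the date as a block more members passed the threshold. Under that fit 5 of 63 were higher (4.72% of all genes were) and 3 lower (4.83% of all genes were). The members higher under the block were SDHA (adjusted p = 0.016), COX8A (0.0118), NDUFB7 (0.0158), NDUFA4 (0.0211) and NDUFA2 (0.0244), and NDUFC2 (0.0468) joined SDHC as lower. Their log2 fold changes under the block lay between 0.17 and 0.24 for the rises. DESeq2 called 0 members higher and 1 lower, where 1.30% and 1.54% of the genes with an adjusted p were called. Leaving out knockout replicate 1 gave other calls: COX6B1 (adjusted p = 0.00485), UQCR10 (0.0247), NDUFA4 (0.0278) and COX5B (0.0402) were then higher, and NDUFA5 and NDUFC2 (0.00599) were lower beside SDHC. Leaving out knockout replicate 2 gave NDUFA2 as higher (adjusted p = 0.0499).

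**Figure D3:**
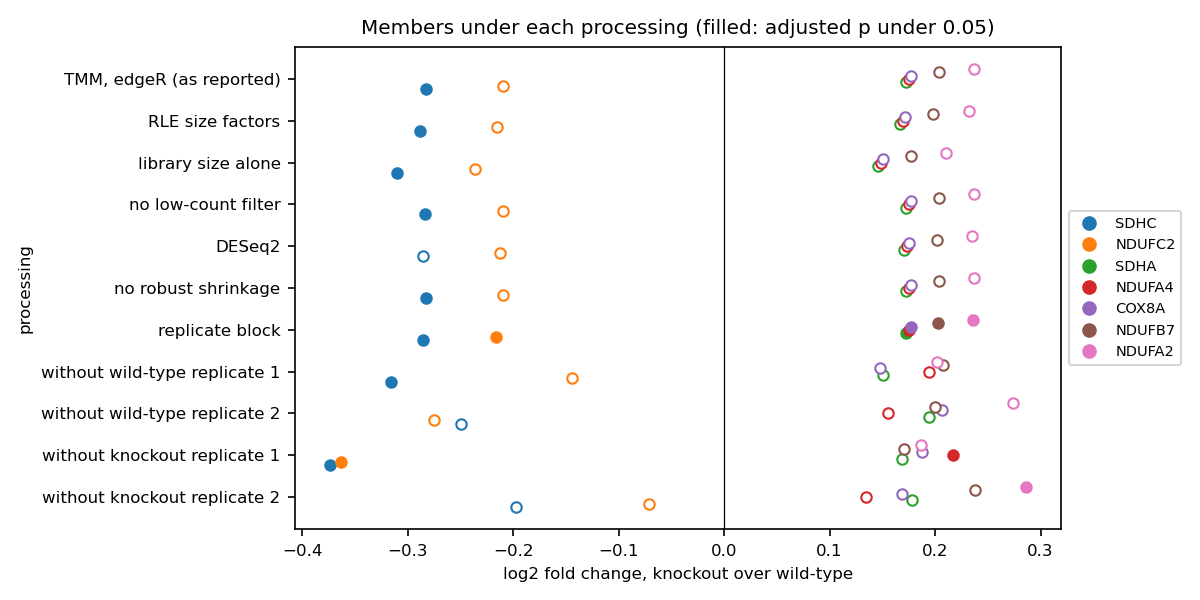
Log2 fold change (x axis) of 7 members called with the date as a block, under each processing (y axis); filled circles have an adjusted p under 0.05. Every gene keeps its side of 0 in all settings shown, while calls change, and without wild-type replicate 2 none of the 7 is filled.

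SDHC lies on the long arm of chromosome 1 (genes starting beyond base 130000000). Of the 612 tested genes there, 57 (9.31%) were lower and 8 (1.31%) higher, with a median log2 fold change of -0.09. Of 13611 genes placed elsewhere 3.55% were lower and 3.51% higher, with a median of 0.0078. The 95% interval of SDHC lay below the median of the arm. SDHC was picked by its call in this same fit, so this comparison is no test of a difference from the arm. Of the pathway list genes described next, 6 lie on the arm, all 6 below 0 with a median of -0.11 and 0 called. Over the 130 off the arm the median was -0.0015, with 2 higher and 2 lower (1.54% each, against 3.06% and 3.50% of all tested genes). Whether the shift of the arm and the fall of SDHC have a common source was not tested.

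Other genes of oxidative phosphorylation were read from lists, with the same fit and background. Of 19 complex I assembly factor genes 0 were called (median -0.02); the methyltransferase gene NDUFAF7 stood at 25.6 and 26.7 CPM in wild-type against 22.6 and 20.3 in knockout (-0.29 ± 0.10, adjusted p = 0.0948, or 0.0368 under the date block). TMEM261, now DMAC1, gave 0.19 ± 0.08. Of 27 complex IV assembly factor genes 0 were called (median -0.01), with COA3 at 0.16 ± 0.08 and the copper chaperone gene COX17 at -0.19 ± 0.10. Of 6 complex III factors 0 were called, with UQCC2 at 0.17 ± 0.08 and UQCC3 at 0.12 ± 0.09. The complex II factors SDHAF1 (0.13 ± 0.12) and SDHAF2 (0.27 ± 0.16), the 2 of 4 listed symbols found in the files, also missed the threshold. Of 17 citric acid cycle genes 0 were called (median -0.01), with OGDH at 0.10 ± 0.06 and PDHB at -0.10 ± 0.07.

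The called genes of the lists were CYC1, CYCS, ATP5I and MT-CO3. Of 17 subunit and carrier genes outside the symbol rule 1 was higher and 1 lower. CYC1, the cytochrome c1 gene and a catalytic core subunit of complex III, rose from 278 and 290 CPM to 315 and 341 CPM (0.21 ± 0.06, adjusted p = 0.0201). CYCS, which encodes the cytochrome c that CYC1 reduces, fell from 392 and 361 to 346 and 317 CPM (-0.19 ± 0.06, adjusted p = 0.0476). The carrier and its reductase thus moved in opposite directions, with no overlap in either. Without wild-type replicate 1 the adjusted p was 0.387 for CYC1 and 0.660 for CYCS, without wild-type replicate 2 it was 0.123 and 0.0930, and without knockout replicate 2 it was 0.247 and 0.423. With DESeq2 it was 0.0559 and 0.141, with scaling by library size alone 0.0552 for CYC1, and without robust shrinkage 0.0705 for CYCS. NDUFAB1, the acyl carrier protein of complex I, gave -0.06 ± 0.06.

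Of 18 ATP synthase genes 1 was higher and 0 lower. ATP5I, now ATP5ME, a membrane subunit gene, rose from 65.6 and 67.3 CPM to 84.9 and 90.6 CPM (0.40 ± 0.07, adjusted p = 9.3e-05). It passed the threshold in each alternative run, leaving out any library and DESeq2 included. Of 13 mitochondrially encoded subunits 0 were higher and 1 lower: MT-CO3, a core subunit of complex IV, fell from 585 and 616 to 507 and 544 CPM (-0.19 ± 0.06, adjusted p = 0.0247). That call was lost without wild-type replicate 1 (adjusted p = 0.107), wild-type replicate 2 (0.469) or knockout replicate 1 (0.136). MT-CO1, named after its values were seen, stood at 442 and 480 CPM in wild-type against 357 and 432 in knockout (-0.22 ± 0.07, adjusted p = 0.078). MT-CO2, also named after its values were seen, gave -0.03 ± 0.10. Over the 13 mitochondrially encoded subunits the median log2 ratio was -0.13 in replicate 1 and 0.10 in replicate 2. Of 17 tested regulators of respiratory genes 0 were called (median -0.05), with 5 above 0 and 12 below. Among the 17, the mitochondrial transcription factor gene TFB2M gave -0.26 ± 0.09 (adjusted p = 0.0793). The coactivator gene PPARGC1B gave -0.25 ± 0.10 (adjusted p = 0.126). TFB2M is one of the list genes on the long arm of chromosome 1 counted above. Under the date block TFB2M and PPARGC1B passed the threshold, with adjusted p = 0.0325 and 0.0468. The levels of NRF1, GABPA and YY1, added after their values were seen, gave 0.13 ± 0.10, -0.08 ± 0.08 and -0.05 ± 0.06.

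**Figure D4:**
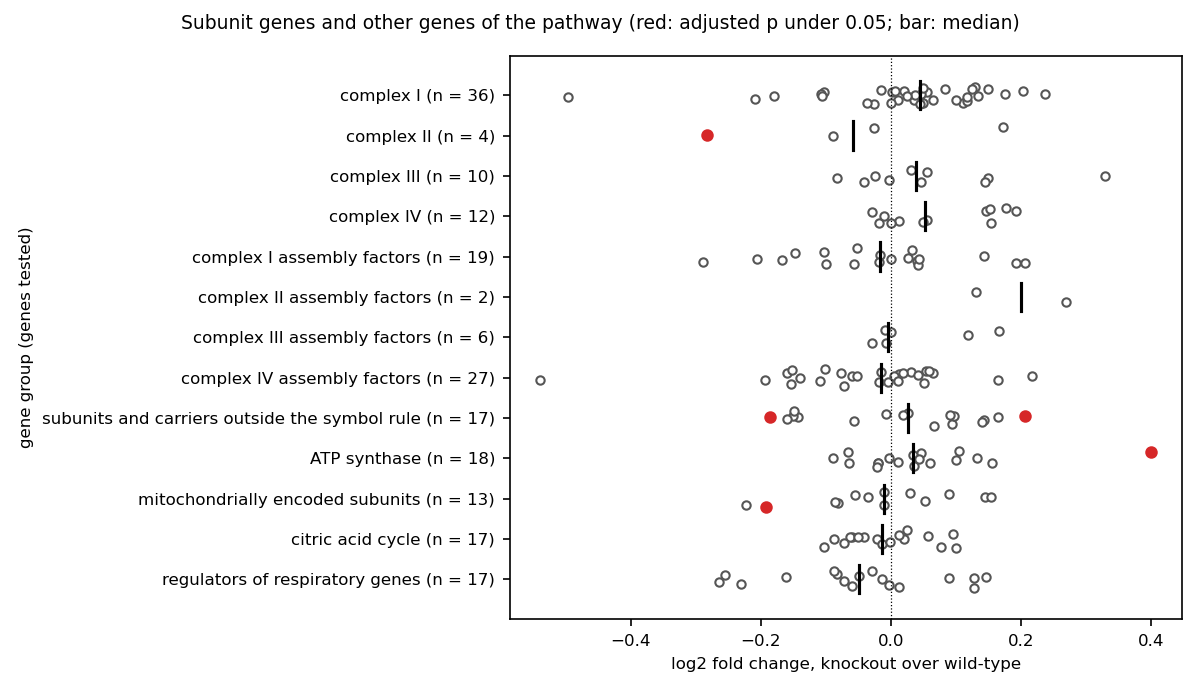
Log2 fold change (knockout over wild-type, x axis) of the members by complex and of the tested genes of each list (y axis, vertical scatter added for display); red points have an adjusted p under 0.05 and bars are medians. The red points are SDHC, CYC1, CYCS, ATP5I and MT-CO3, and ATP5I lies farthest right at 0.40.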

How the data were processed

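RNA-seq of 4 HAP1 libraries was used, and the 4 small RNA files were not. The authors deposited raw read counts per gene symbol, 1 file per library. The submitters' processing notes name the build hg38 and FastQC, STAR, SAMtools, cutadapt, Subread and featureCounts. Their roles and versions, the annotation and the strand setting were not given in the sources used here. Per the labels' protocols the libraries were stranded total RNA. Reads of overlapping genes or near-identical copies may be split or dropped.

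edgeR 4.0.16 in R 4.3.3 was run on the counts: filterByExpr (minimum count 10, 16233 genes), TMM, robust quasi-likelihood F test, Benjamini-Hochberg adjustment over all tested genes, threshold 0.05. SE is the log2 fold change divided by the square root of F. The fit was tested on simulated data. The biological coefficient of variation was 5.53%. Chi-square per degree of freedom between replicates was 3.95 and 4.80, so replicates differed beyond counting noise. Levels are not compared between genes, since transcript lengths were not used.

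The replicate block pairs libraries by shared label date; same-date deviations correlated at 0.0825 over genes. DESeq2 1.42.0, other scalings, no filter, no robust shrinkage, the date block and leaving out each library were alternatives. Positions (62 of 63 members) and promoters came from RefSeq tables of GRCh38.p14, and the motif letters were chosen after the data were seen. The members, lists and tests were chosen with earlier results of these data known. Named genes were the called members, per complex the 4 smallest p and the 2 highest and 2 lowest fold changes, core subunits, complex IV isoforms, CYC1, CYCS, NDUFAB1, and per list up to 3 called genes each way (otherwise the 2 of smallest p). Other names are marked as chosen after their values were seen. The values of 1 member, which stays in the counts, medians and sums, are not reported here, and it is left out of the figures.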

Additional observations from a re-analysis of the deposited data

How the results depend on the processing

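SDHC was called in 7 of 10 refits. Scaling by size factors or by library size, no filter and no robust shrinkage left 0 members higher and 2 lower. A minimum of 1000 counts and leaving out pseudogenes were recounts of the main calls, not refits. Neither drops a called member, so these recounts could only return the same numbers. DESeq2 called 1 member lower, and 234 genes higher and 279 lower over all genes. With the replicate block, which uses the date pairing, 5 members and 767 of all genes were higher. Beyond the genes named as gained under the block in the text, it changed no call of a member. Leaving out 1 library in turn gave 0 to 4 members higher, 0 to 4 lower, 240 to 684 genes higher, 340 to 705 lower and a member median of 0.029 to 0.051. A lone library there is assumed to vary like the other group. Scaling by library size alone gave 374 genes higher and 644 lower (497 and 568 with TMM) and a member median of 0.018, while the median of all genes moved from 0.0017 to -0.025. It turned the sign of 8 members, among them NDUFS1 (-0.0019), NDUFS3 (-0.020) and COX5A (-0.013). The summed CPM was rescaled this way after the data were seen. It then changed by 0.682% over all members, 0.461% in complex I, NDUFA4 included, and -0.208% in complex III. With 1 library left out, 21 of 63 members changed sign at least once. Among the genes chosen by the naming rule, which also took COX6B2, the ranges were SDHD -0.080 to 0.028, COX7A2L -0.055 to 0.019, NDUFS1 -0.015 to 0.066, UQCRFS1 -0.066 to 0.017, COX6B2 -0.12 to 0.36, NDUFS3 -0.016 to 0.031, COX5A -0.0080 to 0.036, COX6A1P2 -0.11 to 0.45 and UQCRC1 -0.0016 to 0.11. The cause of these changes was not tested. Depth limited the low genes: the 3 members whose 95% interval reached past a 1.5-fold change all had under 1000 counts.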
